A study of Mus musculus with 10 samples.

Results

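The genes of the DNA damage checkpoint kinases and mediators were followed in RAW264.7 cells, a mouse macrophage-like tumour line, after 24 h in medium with doxorubicin (5 libraries) or in medium alone (5 libraries). The set held 10 genes chosen by symbol, the kinase genes Atm, Atr, Prkdc, Chek1, Chek2 and Wee1, the histone gene H2ax, and the mediator genes Mdc1, Trp53bp1 and Topbp1. All 10 were among the 22186 genes measured, and all 10 reached the mean level required for testing, as did 9869 genes in all. Both groups are labelled wild type. The doxorubicin was dissolved in dimethyl sulfoxide, and no solvent is named for the medium cultures. The dose is uncertain, since the sample titles give 10 nM, the design text gives 100 nM, and the stated dilution of the stock comes to 1000 nM. Whether each library had its own culture is not stated, and the p-values therefore cover the spread among these libraries alone, which may be technical.

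These proteins detect broken or stalled DNA and hold the cell cycle. ATM and DNA-PK, whose catalytic subunit is the product of Prkdc, are switched on at double-strand breaks, and ATR is switched on at single-stranded DNA with the help of TOPBP1. They phosphorylate the kinases CHK2 and CHK1, which restrain the CDC25 phosphatases, while WEE1 adds the inhibitory phosphate on CDK1 that CDC25 removes. Phosphorylation of the tail of histone H2AX around a break recruits MDC1 and then 53BP1, the product of Trp53bp1. Doxorubicin breaks DNA by trapping topoisomerase II. The pathway acts largely through phosphorylation of proteins already present, which RNA levels do not measure.

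Poly(A) RNA was measured as FPKM, a fragment count scaled by transcript length and by library total, which allows levels to be set side by side between genes. The FPKM values of a library summed to between 338293 and 356111. Read depth is unknown. Both groups carry replicate numbers 1 to 5, and libraries with the same number deviated together from their group means. So did libraries of numbers 2 and 3, and of numbers 4 and 5. The number 1 libraries stood apart from the other 8, and some fold changes are given also without them. Of 12 macrophage markers, 11 averaged at least 1 FPKM, and their summed level lay between 2151 and 2382 FPKM with doxorubicin and between 2059 and 2303 FPKM in medium. The 20 markers of lymphocytes, neutrophils, fibroblasts, epithelium and endothelium summed to 1.50 to 2.03 FPKM with doxorubicin and to 1.32 to 2.11 FPKM in medium, and 9 of them, including Cd3e, Ly6g and Krt8, were listed at 0 in every library. Only 1 of the 20, the neutrophil marker S100a8, averaged at least 1 FPKM, with a highest value of 1.74 FPKM.

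Of the 10 checkpoint genes, none passed the test with group only, and H2ax had the largest difference, at 28.4 FPKM with doxorubicin and 18.9 FPKM in medium. The log2 fold changes lay between -0.12 for Chek1 and 0.61 for H2ax, and in limma, with group as the only term, 0 were higher and 0 lower at an adjusted p under 0.05 (adjusted p 0.350 to 0.982). Over all genes tested, 0.689% were called higher and 0.223% lower in this fit. None of the 10 had an unadjusted p under 0.05 in this fit, where 1757 of the 9869 genes tested did. Limma with library weights called 3 of the 10 higher, Atm, Chek2 and H2ax, and 0 lower, where it called 14.0% of all genes tested higher and 23.3% lower. For the 9 genes other than H2ax, the 95% intervals of the log2 fold change all lay between -0.47 and 0.50, and that of H2ax ran from -0.15 to 1.38. The 5 doxorubicin libraries overlapped the 5 medium libraries for each of the 10 genes, whereas 2.73% of all genes tested lay wholly higher and 3.97% wholly lower. Without both number 1 libraries, 0 of the 10 were called higher or lower, against 2.87% and 2.77% of all genes tested. In these bulk libraries, a change in the mixture of cells and a change in RNA per cell cannot be told apart.

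**Figure D1:**
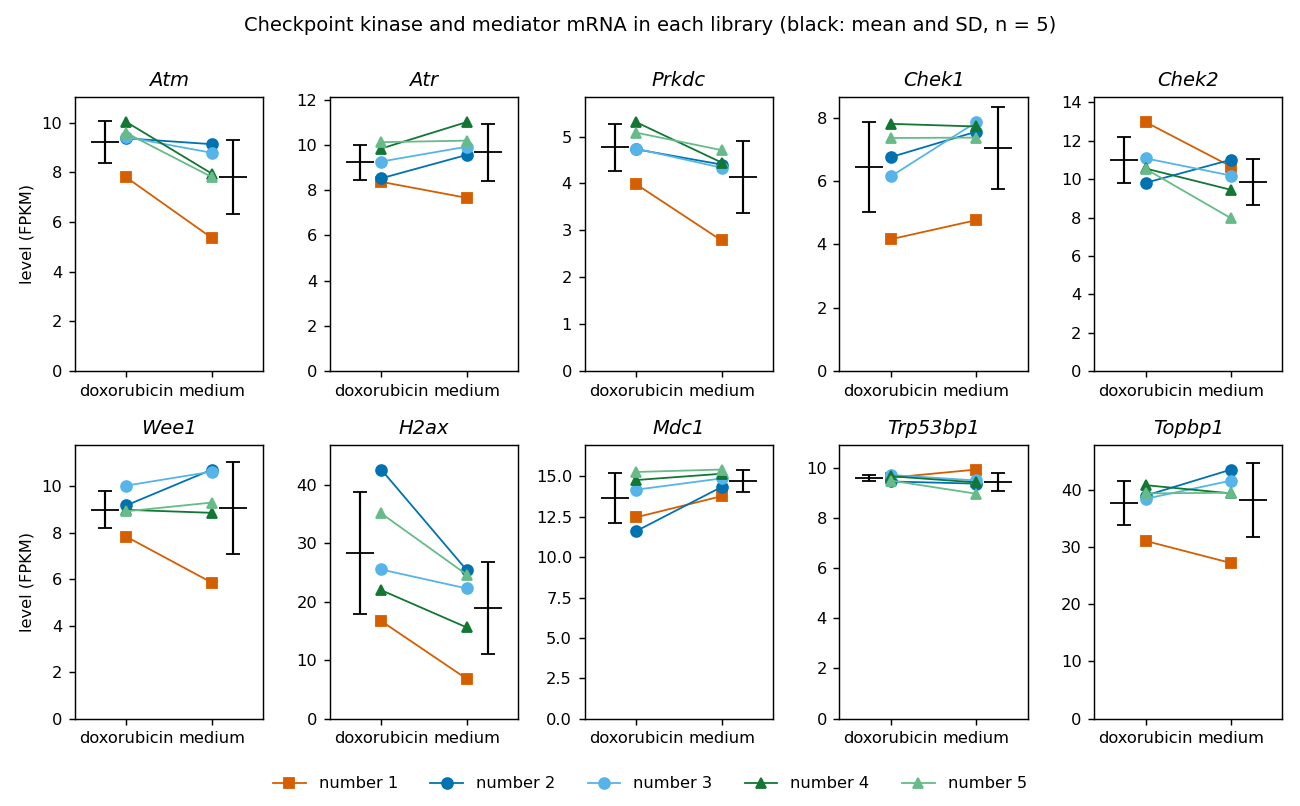
FPKM of each of the 10 genes in the doxorubicin libraries (left of each panel) and the medium libraries (right), with a line joining the libraries of the same replicate number and black bars for the mean and SD of 5 libraries. The groups overlap in every panel, and the lines of Atm, Prkdc and H2ax all lie higher at the doxorubicin end.

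With the replicate number as a block, which compares libraries of the same number, 2 of the 10 genes rose, H2ax and Atm, and 0 fell. This fit called 7.81% of all genes higher and 13.7% lower. The standard error was smaller with the block for all 10 genes, and ran from 0.05 to 0.12 against 0.05 to 0.35 with group only. Within the replicate numbers, Atm, Prkdc and H2ax were higher with doxorubicin in 5 of 5, as were 13.2% of all genes tested. Mdc1 was lower in 5 of 5, as were 23.1% of all genes tested.

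**Figure D2:**
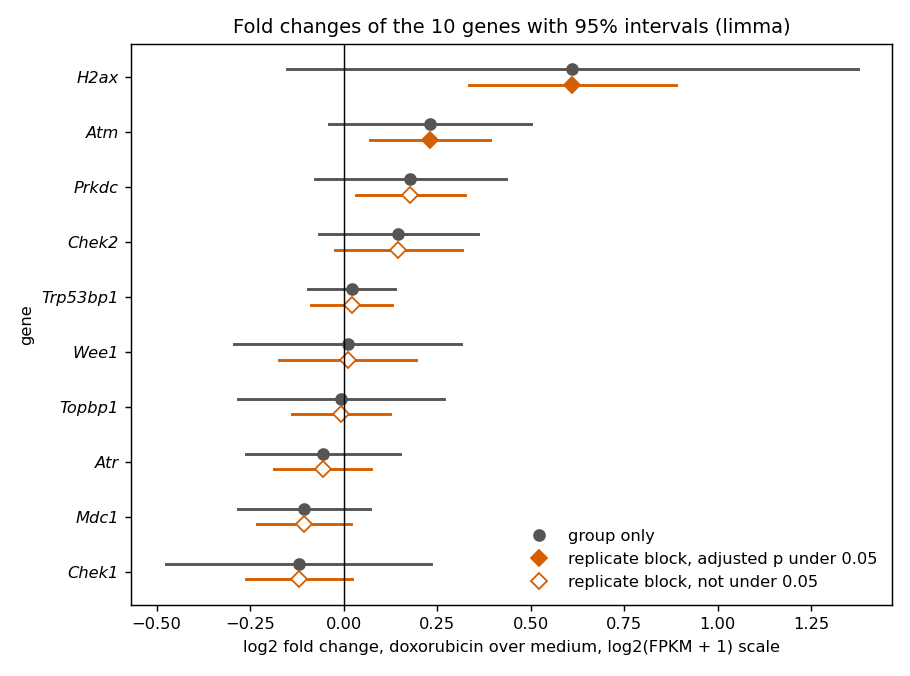
Log2 fold change, doxorubicin over medium, of the 10 genes with 95% intervals from limma, with group as the only term (grey circles) and with the replicate number as a block (orange diamonds, filled where the adjusted p is under 0.05). H2ax at 0.61 and Atm at 0.23 are the filled points.

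Sequence around the start sites is shown for Atm, Chek1 and Trp53bp1, picked after their values were seen. Atm was called with the block, Chek1 had a coefficient of variation of 22.1% with doxorubicin and 18.3% in medium, and Trp53bp1 was the steadiest gene. The Chek1 values include the number 1 libraries, at 4.16 FPKM with doxorubicin and 4.76 FPKM in medium. Libraries 2 to 5 lay between 6.14 and 7.80 FPKM with doxorubicin and between 7.37 and 7.86 FPKM in medium. RefSeq windows of 300 bases (250 before to 50 after the start, build GRCm38.p6) were matched for 7 of the 10 genes, which leaves Wee1, Prkdc and H2ax named only. The windows of Atm, Chek1 and Trp53bp1 are written 5′ to 3′ on the gene's strand, with matches to GCGGGAA, a core bound by E2F factors, in capitals. The match begins 16 bases after the start in Atm and 44 bases after it in Chek1, and Trp53bp1 has none. Atm lies at chr9:53536622-53536921, Chek1 at chr9:36726609-36726908 and Trp53bp1 at chr2:121271358-121271657, all on the minus strand.
Atm: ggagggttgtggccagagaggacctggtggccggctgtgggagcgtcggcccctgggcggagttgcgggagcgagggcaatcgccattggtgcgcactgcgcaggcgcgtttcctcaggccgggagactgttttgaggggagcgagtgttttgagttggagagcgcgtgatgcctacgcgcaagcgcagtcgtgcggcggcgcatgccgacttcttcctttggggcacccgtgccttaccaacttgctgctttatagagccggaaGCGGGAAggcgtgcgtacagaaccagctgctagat
Chek1: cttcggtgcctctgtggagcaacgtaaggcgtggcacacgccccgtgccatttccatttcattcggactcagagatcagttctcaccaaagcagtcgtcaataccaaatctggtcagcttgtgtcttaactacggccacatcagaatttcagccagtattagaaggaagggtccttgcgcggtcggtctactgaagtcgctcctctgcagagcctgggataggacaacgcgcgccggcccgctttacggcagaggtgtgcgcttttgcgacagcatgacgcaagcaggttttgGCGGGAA
Trp53bp1: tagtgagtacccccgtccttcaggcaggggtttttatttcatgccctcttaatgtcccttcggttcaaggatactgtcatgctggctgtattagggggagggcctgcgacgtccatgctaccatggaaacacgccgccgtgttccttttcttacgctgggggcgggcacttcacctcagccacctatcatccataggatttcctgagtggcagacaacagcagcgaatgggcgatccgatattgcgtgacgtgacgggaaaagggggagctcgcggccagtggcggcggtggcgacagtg

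Searched on both strands, GCGGGAA was present in the windows of Atm, Chek1, Chek2 and Mdc1 and in 4.60% of all 32851 windows. It was chosen after the windows had been read. The coefficient of variation in medium was 18.95% (Atm), 18.32% (Chek1), 12.26% (Chek2) and 4.489% (Mdc1) with a match. Without a match it was 16.77% (Topbp1), 12.86% (Atr) and 3.644% (Trp53bp1). These values include medium 1, which stood at 64.0% (Atm), 62.4% (Chek1), 109% (Chek2) and 91.7% (Mdc1) of the median of medium 2 to 5. For the genes without a match it stood at 67.1% (Topbp1), 76.2% (Atr) and 106% (Trp53bp1). Whether the match goes with variation was not tested. The GC box GGGCGG was in 5 of the 7 windows and in 35.7% of all windows, and CCAAT was in 3 of 7 and in 37.4%. The p53 half-site was in 0 of 7 and in 8.36%. These are matches of letters and say nothing of binding. By the same annotation 5 of the 10 genes, Atm, Atr, Chek1, H2ax and Topbp1, lie on chromosome 9, where 5.49% of the tested genes lie.

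Of the 3 kinases at the head of the pathway, Atm, whose product responds to double-strand breaks, stood at 7.80, 9.37, 9.43, 10.0 and 9.59 FPKM in doxorubicin libraries 1 to 5, against 5.36, 9.14, 8.79, 7.95 and 7.81 FPKM in medium libraries 1 to 5. Doxorubicin libraries 2 to 5 were above each of the medium libraries, and doxorubicin 1 was above medium 1 alone. The means were 9.24 ± 0.848 FPKM with doxorubicin and 7.81 ± 1.48 FPKM in medium (SD, n = 5 each). The log2 fold change was 0.23 (SE 0.12, limma adjusted p = 0.350), and with the block the SE was 0.07 and the adjusted p 0.0481. This call was narrow. Without medium 1 the log2 fold change was 0.12 (adjusted p = 0.363), and without both number 1 libraries it was 0.17. With the block, the adjusted p was 0.0542, 0.0687, 0.145 and 0.137 without numbers 1, 3, 4 and 5, and 0.0453 without number 2. The within-number differences on the log2 scale were 0.47, 0.03, 0.09, 0.30 and 0.26 for numbers 1 to 5.

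Prkdc, the DNA-PK catalytic subunit gene, had the lowest level of the 10. It was at 3.99, 4.73, 4.74, 5.31 and 5.08 FPKM in doxorubicin libraries 1 to 5, against 2.78, 4.40, 4.33, 4.45 and 4.71 FPKM in medium. Doxorubicin 2 to 5 again lay above all medium libraries, and doxorubicin 1 lay above medium 1 only. Its log2 fold change was 0.18 (SE 0.12, limma adjusted p = 0.455; 0.0764 with the block). It passed in 1 of the settings tried, the block with median-of-ratios scaling (0.0485), which called 11.0% of all genes tested higher and 11.3% lower. Without medium 1 the log2 fold change was 0.07 (adjusted p = 0.571), and without both number 1 libraries it was 0.12.

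Atr, the kinase gene for replication stress, was at 8.37, 8.52, 9.27, 9.84 and 10.1 FPKM in doxorubicin libraries 1 to 5, against 7.66, 9.56, 9.92, 11.0 and 10.2 FPKM in medium. The groups overlapped throughout, and doxorubicin was the lower in numbers 2 to 5 and the higher in number 1. On the log2 scale the fold change was -0.06 with a 95% interval from -0.26 to 0.15 (limma adjusted p = 0.806).

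Among the kinases that act further down, Chek1 was at 4.16, 6.75, 6.14, 7.80 and 7.36 FPKM in doxorubicin libraries 1 to 5, against 4.76, 7.56, 7.86, 7.72 and 7.37 FPKM in medium. Doxorubicin was lower in numbers 1 to 3, by 0.16, 0.14 and 0.31 on the log2 scale, and numbers 4 and 5 differed by 0.01 and -0.0021. Whether the effect differed between numbers was not tested. The log2 fold change over all libraries was -0.12 (SE 0.16, limma adjusted p = 0.752; 0.189 with the block). It was -0.24 without medium 1 and 0.0060 without doxorubicin 1.

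Chek2, the main target of ATM, was at 13.0, 9.81, 11.1, 10.6 and 10.5 FPKM in doxorubicin libraries 1 to 5, against 10.7, 11.0, 10.2, 9.45 and 7.97 FPKM in medium. It was the higher with doxorubicin in 4 of 5 numbers and the lower in number 2. Over all libraries its log2 fold change was 0.15 (SE 0.10, limma adjusted p = 0.459; 0.183 with the block).

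Wee1, which holds CDK1 inactive, was at 7.83, 9.18, 10.0, 8.99 and 8.92 FPKM in doxorubicin libraries 1 to 5, against 5.85, 10.7, 10.6, 8.86 and 9.30 FPKM in medium. All doxorubicin values lay inside the range of the medium values. Its log2 fold change was 0.01 (95% interval -0.29 to 0.31, limma adjusted p = 0.978), and it was -0.08 without both number 1 libraries (adjusted p = 0.499), so the data give no direction for this gene.

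H2ax, the gene of the histone variant phosphorylated around breaks, had the largest fold change of the 10. Its level was 16.7, 42.6, 25.5, 22.0 and 35.1 FPKM in doxorubicin libraries 1 to 5, against 6.81, 25.4, 22.3, 15.6 and 24.6 FPKM in medium libraries 1 to 5. Doxorubicin was the higher in each number, while doxorubicin 1 and 4 lay below medium 2, 3 and 5. The means were 28.4 ± 10.4 FPKM with doxorubicin and 18.9 ± 7.81 FPKM in medium (SD, n = 5 each). The log2 fold change was 0.61 (SE 0.35, limma adjusted p = 0.382), and with the block the SE was 0.12 and the adjusted p 0.0126. Within numbers 1 to 5 the difference was 1.18, 0.72, 0.19, 0.47 and 0.50 on the log2 scale. Without medium 1 alone the log2 fold change was 0.30 (adjusted p = 0.451). With both number 1 libraries left out it was 0.47 (adjusted p = 0.0026 with the block, 0.188 without), and the block fit kept the call whichever number was left out, with adjusted p from 0.0026 to 0.0429. H2ax messages are known to occur with and without a poly(A) tail, and these libraries were made from poly(A) RNA.

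Of the 3 mediator genes, Trp53bp1 and Topbp1 had log2 fold changes close to 0 and Mdc1 had one of -0.11. The difference between these and that of H2ax was not tested. Mdc1, whose product binds phosphorylated H2AX directly, was at 12.5, 11.6, 14.2, 14.8 and 15.3 FPKM in doxorubicin libraries 1 to 5, against 13.8, 14.3, 14.9, 15.2 and 15.4 FPKM in medium. Each doxorubicin value was below that of the same number in medium, by 0.01 to 0.28 on the log2 scale. Its log2 fold change was -0.11 (SE 0.08, limma adjusted p = 0.526; 0.189 with the block).

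Trp53bp1, whose product 53BP1 protects broken ends from resection, was the steadiest of the 10, at 9.60, 9.45, 9.71, 9.66 and 9.48 FPKM in doxorubicin libraries 1 to 5, against 9.92, 9.36, 9.49, 9.41 and 8.96 FPKM in medium. The coefficient of variation was 1.16% with doxorubicin and 3.64% in medium, and the log2 fold change was 0.02 with a 95% interval from -0.09 to 0.14 (limma adjusted p = 0.878).

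Topbp1, the activator of ATR, was the most abundant of the 10. It stood at 31.1, 39.0, 38.4, 40.8 and 39.3 FPKM in doxorubicin libraries 1 to 5, against 27.2, 43.5, 41.6, 39.4 and 39.5 FPKM in medium. The number 1 libraries were the lowest of each group. The log2 fold change was -0.0071 (95% interval -0.28 to 0.27, limma adjusted p = 0.982), and its sign changed with median-of-ratios scaling (0.01).

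**Figure D3:**
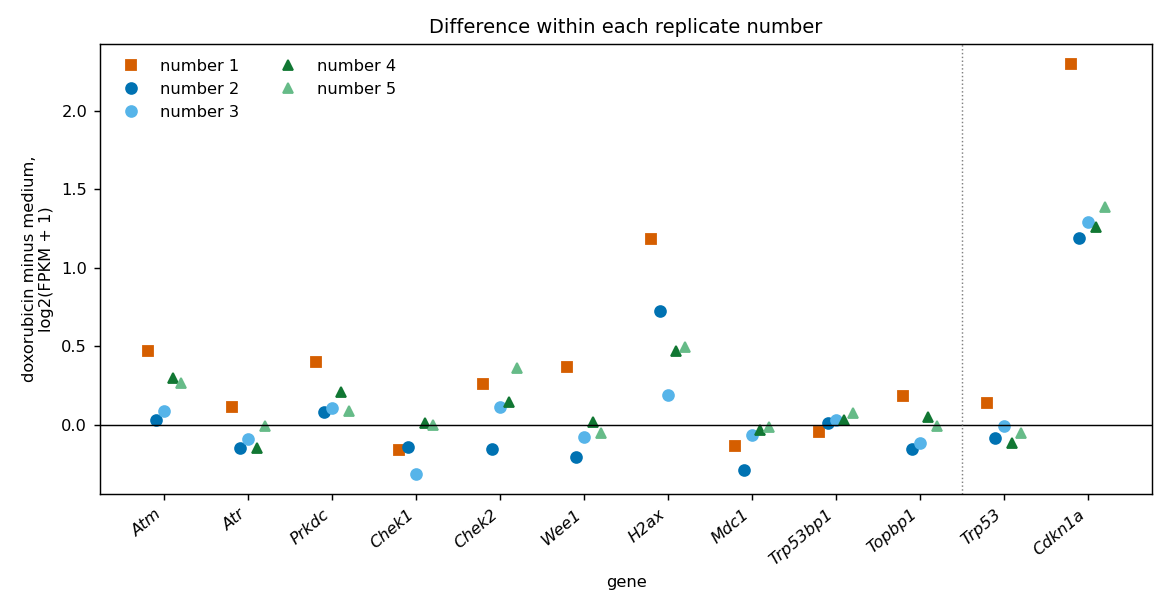
Difference between the doxorubicin and the medium library of each replicate number on the log2(FPKM + 1) scale, for the 10 genes and, right of the dotted line, for Trp53 and Cdkn1a. H2ax lies above 0 in all 5 numbers (0.19 to 1.18), as does Cdkn1a (1.19 to 2.29), while Chek1, Wee1 and Topbp1 lie on both sides of 0.

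Ordered by mean FPKM with doxorubicin, the genes ran Topbp1 (37.7), H2ax (28.4), Mdc1 (13.7), Chek2 (11.0), Trp53bp1 (9.58), Atm (9.24), Atr (9.22), Wee1 (8.99), Chek1 (6.44) and Prkdc (4.77). In medium the order was Topbp1 (38.2), H2ax (18.9), Mdc1 (14.7), Chek2 (9.86), Atr (9.67), Trp53bp1 (9.43), Wee1 (9.07), Atm (7.81), Chek1 (7.05) and Prkdc (4.13). With doxorubicin, the 5 libraries of neighbouring genes did not overlap between H2ax and Mdc1, between Chek2 and Trp53bp1, and between Wee1 and Chek1. In medium they did not overlap between Topbp1 and H2ax, between Mdc1 and Chek2, and between Chek1 and Prkdc. The other neighbours overlapped, so the places of Atm, Atr, Trp53bp1 and Wee1 relative to each other were not resolved.

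The number 1 libraries lay low for most of these genes. Medium 1 was the lowest of its group for 8 of the 10 genes and doxorubicin 1 for 7. H2ax lay 0.82 below the mean of libraries 2 to 5 in doxorubicin 1 and 1.53 below it in medium 1 on the log2 scale, and 0.223% of all genes tested lay further below in medium 1. Chek1 lay 0.63 below in doxorubicin 1 and 0.58 below in medium 1, and Wee1 lay 0.22 and 0.66 below in these libraries. Chek2 and Trp53bp1 were not low, at 0.28 and 0.0036 above the mean in doxorubicin 1 and 0.14 and 0.08 above it in medium 1. The median deviation of the 10 genes was -0.24 in doxorubicin 1 and -0.55 in medium 1, against -0.05 and -0.10 for all genes tested. A list of 14 cell cycle targets of the checkpoint, among them cyclin and CDC25 genes, deviated in the same libraries by a median of -0.36 in doxorubicin 1 and -0.64 in medium 1. The part of cell cycle differences in the levels of the 10 genes was not tested.

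**Figure D4:**
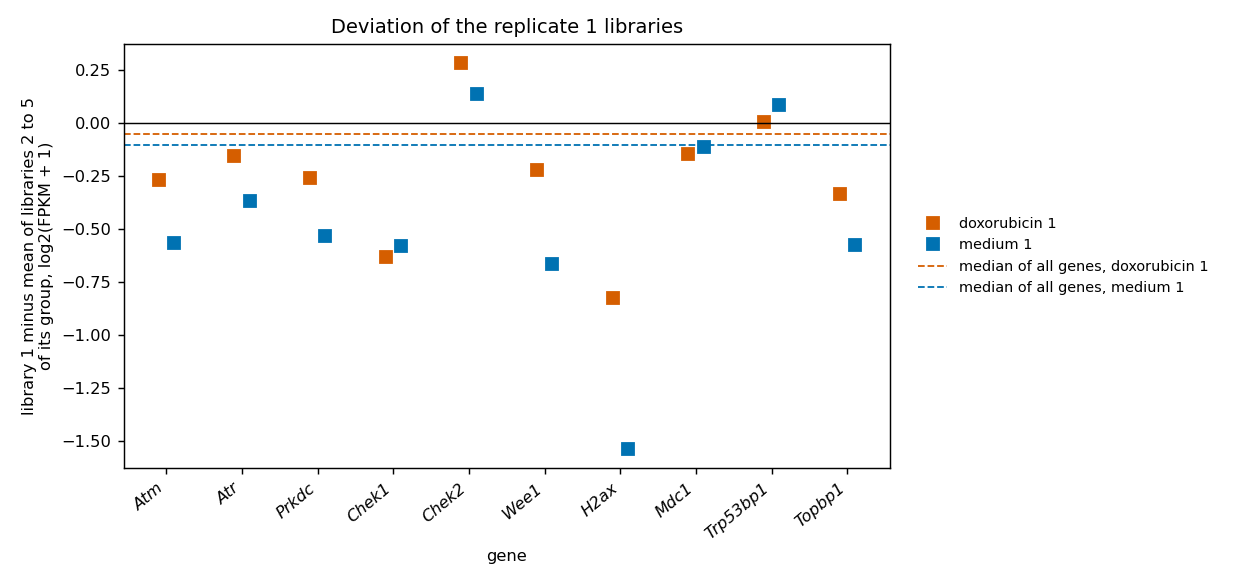
Deviation of doxorubicin replicate 1 (orange) and medium replicate 1 (blue) from the mean of replicates 2 to 5 of the same group, on the log2(FPKM + 1) scale, with dashed lines for the median of all genes tested. H2ax is lowest in both (-0.82 and -1.53), and Chek2 lies above 0 in both.

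The genes around the checkpoint were described through 5 lists with 79 tested members. With group only, where 0.689% of all genes tested rose and 0.223% fell, 7 of these rose and 0 fell. Of the 7, 6 were from the p53 list and the seventh was Mdm2, itself a p53 target. With the block 11 rose and 12 fell, where 7.81% of all genes tested rose and 13.7% fell. The lists of sensors, chromatin mediators, cell cycle targets and phosphatases had median log2 fold changes of -0.03, -0.07, -0.08 and -0.03, against 0.02 for the 10 kinases and mediators and -0.03 for all genes tested. The median of the p53 list was 0.78, and 0.54 without both number 1 libraries.

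**Figure D5:**
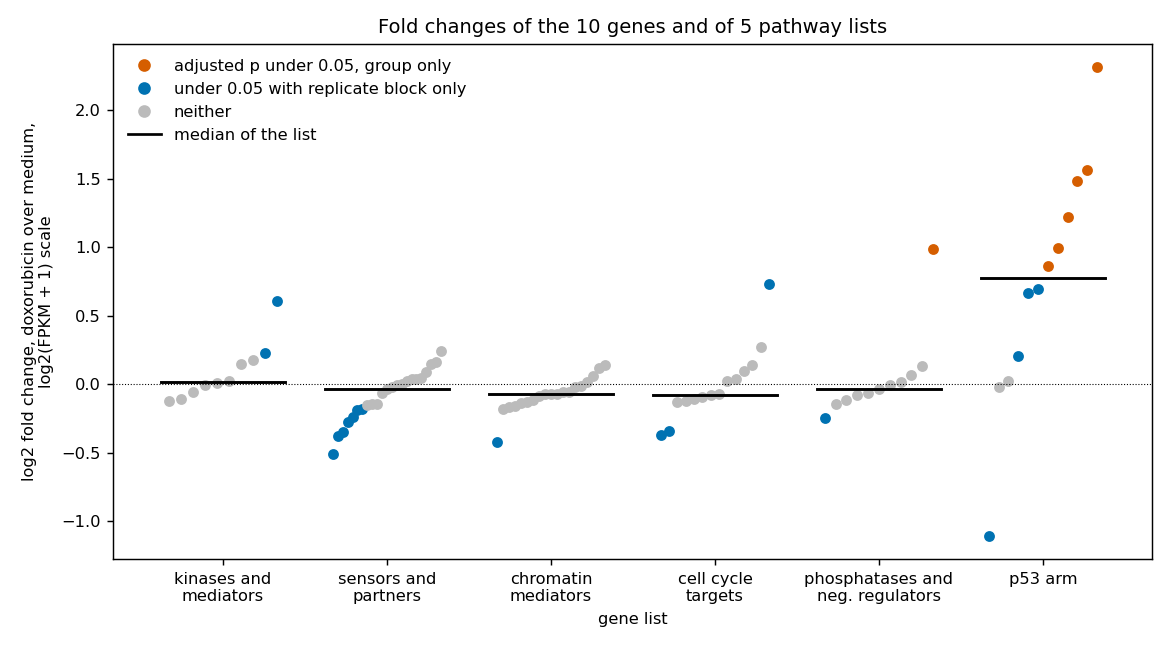
Log2 fold change, doxorubicin over medium, of each tested gene in the set of kinases and mediators and in 5 lists around it, with the list median as a black line. Orange points passed with group only, blue points with the replicate block only. The p53 list has its median at 0.78, and the other medians lie between -0.08 and 0.02.

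Of 23 tested sensors and kinase partners, 0 passed with group only, and with the block 0 rose and 7 fell, beside the 7.81% and 13.7% of all genes tested. Rad9a and Hus1, subunits of the ring-shaped clamp that brings TOPBP1 to ATR, were among the 7. Rad9a was at 6.82, 7.24, 7.28, 7.36 and 8.43 FPKM in doxorubicin libraries 1 to 5, against 7.55, 9.45, 9.75, 11.3 and 12.0 FPKM in medium, lower in each number (log2 fold change -0.37, limma adjusted p = 0.131; 0.00931 with the block). Hus1 was at 5.07 ± 0.775 FPKM with doxorubicin and 6.32 ± 0.836 FPKM in medium (-0.27, limma adjusted p = 0.241; 0.0189 with the block). Both also passed without number 1 and without the block, with adjusted p of 0.0220 and 0.0420. Tti2, part of a complex that stabilises ATM, ATR and DNA-PK, was at 4.91 ± 1.28 FPKM with doxorubicin and 7.36 ± 1.34 FPKM in medium (-0.51; 0.00677 with the block). Abraxas1, the scaffold of a BRCA1 complex, was at 6.21 ± 1.09 FPKM with doxorubicin and 8.25 ± 2.05 FPKM in medium (-0.35; 0.0184 with the block). With a number left out of the block fit, Rad9a and Tti2 passed in 5 of 5 fits. Abraxas1 passed in 3 (without numbers 1, 2 and 3) and Hus1 in 2 (without numbers 1 and 3), with adjusted p of at most 0.0766 in the others. Rad50, Rad17 and Kat5 were the other 3, named after their values were seen. Rad50 and Rad17 were not called by the block fit with median-of-ratios scaling.

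Another 4 genes of this list, named after their values were seen, did not pass either fit. Atrip, the partner of ATR, was at 3.56 ± 1.01 FPKM with doxorubicin and 3.14 ± 1.15 FPKM in medium (0.15, limma adjusted p = 0.752). The Ku genes Xrcc5 and Xrcc6, whose products bring DNA-PK to ends, had log2 fold changes of 0.00021 and 0.04. Clspn, the claspin gene needed for CHK1 activation, was at 11.4 ± 2.56 FPKM with doxorubicin and 11.3 ± 3.86 FPKM in medium (0.05, limma adjusted p = 0.945).

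Of 19 tested chromatin mediators, 0 passed with group only. With the block 0 rose and 1 fell, beside 7.81% and 13.7% of all genes tested. That gene was Uimc1, which encodes the ubiquitin-binding protein RAP80. It was at 8.86, 11.2, 10.3, 13.1 and 12.0 FPKM in doxorubicin libraries 1 to 5, against 14.3, 13.5, 13.5, 16.8 and 18.0 FPKM in medium, so that the groups did not overlap (-0.42, limma adjusted p = 0.114; 0.0058 with the block). Of all genes tested, 3.97% lay wholly lower in this way. Brca1 was at 9.99 ± 0.987 FPKM with doxorubicin and 10.6 ± 1.62 FPKM in medium (-0.07), named after its value was seen.

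Of 14 cell cycle targets, 0 passed with group only. With the block 1 rose and 2 fell, beside 7.81% and 13.7% of all genes tested. Pkmyt1, a kinase gene related to Wee1, was at 7.23, 11.2, 10.9, 9.76 and 9.60 FPKM in doxorubicin libraries 1 to 5, against 9.40, 14.2, 14.5, 13.6 and 12.7 FPKM in medium (-0.37, limma adjusted p = 0.188; 0.00303 with the block). Cdc25c, the phosphatase gene that opposes WEE1, was at 3.77 ± 0.490 FPKM with doxorubicin and 5.04 ± 0.508 FPKM in medium (-0.34, limma adjusted p = 0.113; 0.00805 with the block). Both were lower in 5 of 5 numbers, as were 23.1% of all genes tested. Ccne1, the cyclin E1 gene, was at 20.5, 41.3, 43.2, 28.9 and 29.6 FPKM in doxorubicin libraries 1 to 5, against 5.40, 36.2, 33.2, 18.7 and 17.2 FPKM in medium (0.73, limma adjusted p = 0.392; 0.0302 with the block). Like H2ax, Ccne1 was lowest in medium 1 and higher with doxorubicin in each number. Its block call was kept without numbers 1 and 2 and lost without numbers 3, 4 and 5 (adjusted p of at most 0.0894), and its log2 fold change was 0.48 without number 1 and 0.33 without medium 1 alone.

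Of 11 phosphatases and negative regulators, 1 rose and 0 fell with group only, beside 0.689% and 0.223% of all genes tested. The 1 that rose was Mdm2, whose product degrades p53. With the block 1 rose, again Mdm2, and 1 fell, beside 7.81% and 13.7% of all genes tested. The 1 that fell was Ppp4c, the gene of a phosphatase that acts on phosphorylated H2AX. It was at 103 ± 9.32 FPKM with doxorubicin and 123 ± 11.1 FPKM in medium (-0.25, limma adjusted p = 0.175; 0.00985 with the block). Mdm2 was at 126, 58.0, 59.8, 64.6 and 70.1 FPKM in doxorubicin libraries 1 to 5, against 35.6, 33.8, 33.4, 38.1 and 38.9 FPKM in medium (0.99, limma adjusted p = 0.0354; 0.00425 with the block). Without both number 1 libraries its log2 fold change was 0.79 (limma adjusted p = 0.000926 with group only). The Mdm2 call with group only was lost without medium 2, 3, 4 or 5 or doxorubicin 3, 4 or 5 (adjusted p 0.0596 to 0.103) and when low genes were not filtered out (0.0642). With the block, Mdm2 passed whichever number was left out (adjusted p 5.8e-06 to 0.021). The Ppp4c call with the block was lost without number 4 or 5 (0.0540 and 0.0538). Ppm1d, a p53-induced phosphatase gene whose product switches ATM off, was at 6.49 ± 0.717 FPKM with doxorubicin and 5.96 ± 1.48 FPKM in medium (0.13, limma adjusted p = 0.699), named after its value was seen.

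The p53 arm served as the readout of the pathway, and its response was known from an earlier analysis of these libraries. Trp53 itself was at 73.8, 103, 104, 110 and 105 FPKM in doxorubicin libraries 1 to 5, against 66.8, 110, 104, 119 and 109 FPKM in medium (-0.02, limma adjusted p = 0.959). Cdkn1a, the p21 gene, was at 212, 120, 129, 132 and 143 FPKM in doxorubicin libraries 1 to 5, against 42.5, 52.1, 52.1, 54.4 and 54.0 FPKM in medium, with every doxorubicin library above every medium library (1.48, limma adjusted p = 0.00466). Its log2 fold change was 1.28 without both number 1 libraries. Of the 12 tested genes of the list, 6 rose with group only, Cdkn1a, Ccng1, Trp53inp1, Phlda3, Zmat3 and Eda2r, where 0.689% of all genes tested rose. Wholly higher with doxorubicin were 9 of 12, as were 2.73% of all genes tested. With the block 9 rose and 1 fell, beside 7.81% and 13.7% of all genes tested. The 1 that fell was the growth arrest gene Gadd45a (-1.11), named after its value was seen. With any 1 library left out, Cdkn1a, Ccng1 and Trp53inp1 stayed past the threshold, Phlda3 lost its call without medium 4 or doxorubicin 4 or 5, Zmat3 without medium 3 or 4 or doxorubicin 1, 3, 4 or 5, and Eda2r without medium 4 or doxorubicin 1, 4 or 5, with adjusted p of at most 0.0890. Eda2r also lost its call with a pseudocount of 0.1 FPKM (0.0638). It averaged 2.34 FPKM with doxorubicin and 0.685 FPKM in medium, so it reached the mean of 1 FPKM required for testing only through the doxorubicin libraries. The difference between the p53 genes and the kinases and mediators was not tested.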

How the data were processed

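The authors deposited 1 table of FPKM values (fragments scaled by transcript length and library total), with 1 column for each of the 10 libraries. The submitters' processing notes name GRCm39. Aligner, quantifier, annotation and filters are not given in the sources used here. No steps of whole reads were found among low genes, depth is therefore unknown, and no counting interval is given. Genes averaging 1 FPKM or more were tested as log2(FPKM + 1) in limma 3.58.1 (R 4.3.3) with a mean-variance trend, group as the only term and Benjamini-Hochberg adjustment over 9869 genes. All fold changes are on this scale, which understates changes of low genes. Deviations of same-numbered libraries correlated at 0.52 to 0.79, all above 0.1, so the replicate number, taken from the titles, is used as a block beside the group fit. Numbers 2 and 3 also correlated across the groups (0.59 and 0.69), as did numbers 4 and 5 (0.51 in both directions), so the libraries may form fewer than 5 sets. The block p-values and the counts of 5 of 5 would then rest on fewer than 5 independent comparisons. Code was tested on simulated data. The members and lists were chosen with earlier results of these data known. Named pathway genes were those past an adjusted p of 0.05 with group only and up to 4 per list with the block, plus Trp53 and Cdkn1a. Alternatives were another pseudocount, no filter, other scalings, library weights, an exact permutation test, and libraries or numbers left out. Lists are described by counts and medians. Mre11 and Mre11a are symbols of 1 gene, listed as Mre11a, and L3mbtl1 was below the filter.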

Additional observations from a re-analysis of the deposited data

Results flagged for a closer look

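In 13 of the 54 groups of 5 libraries examined (27 named genes, 2 groups each), 1 library lay far from the other 4, with a gap to its nearest neighbour of more than 0.71 of the group's range on the log2(FPKM + 1) scale. For independent groups, chance gives about 1 such group in 20. The 54 groups come from the same 10 libraries, so 1 deviating library can count for many genes. Their count therefore cannot be set against that rate. In all 13 the library set apart was the number 1 library. Among the checkpoint kinases and mediators, this library was the lowest for Atm with doxorubicin (gap 0.729 of the range, 7.80 FPKM), for Chek1 in medium (0.868, 4.76 FPKM), for Prkdc in medium (0.835, 2.78 FPKM) and for Topbp1 with doxorubicin (0.778, 31.1 FPKM) and in medium (0.785, 27.2 FPKM).

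Among the other genes named, it was the lowest for Ppp4c with doxorubicin (0.843), for Trp53 with doxorubicin (0.845) and in medium (0.770), and in medium for Cdkn1a (0.825), Zmat3 (0.832) and Eda2r (0.774). It was the highest with doxorubicin for Mdm2 (0.756) and Phlda3 (0.847).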

How the results depend on the processing

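Of the log2 fold changes of the 10 genes under 24 alternative settings, 240 values in all, 211 kept direction and side of the threshold, 14 newly passed and 15 changed sign. The sign changes were of Chek1 (-0.24 to 0.0060 with 1 library left out), Wee1 (-0.016 with library weights, -0.079 without number 1 with or without the block, -0.12 to 0.071 with 1 library left out) and Topbp1 (0.013 with median-of-ratios scaling with or without the block, -0.12 to 0.059 with 1 library left out, 0.030 and 0.019 with the block and number 2 or 3 left out). Trp53 ran from -0.17 to 0.079 with 1 library left out and was 7.9e-05 with the block and number 4 left out.

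Over all genes, 68 were higher and 22 lower with group only, 771 and 1356 with the replicate block, 1379 and 2302 with library weights, 283 and 273 with number 1 left out, and 1087 and 1117 with the block and median-of-ratios scaling. The exact permutation test called 0 and 0 (1764 genes at an unadjusted p under 0.05), with no adjusted p below 0.118, Cdkn1a included, so its counts of 0 say nothing of single genes. Leaving out 1 library gave 15 to 136 higher and 0 to 90 lower. With the block and number 1, 2, 3, 4 or 5 left out, the counts were 1010, 727, 430, 264 and 254 higher and 1817, 822, 870, 373 and 374 lower. Of the 10 genes, 2 were called higher with the block, 3 with library weights, 3 with the block and scaling, and 1, 2, 1, 1 and 1 with the block and a number left out, but 0 with any 1 library left out of the fit by group. Of the pathway genes, 7 were higher and 0 lower with group only, 11 and 12 with the block, 12 and 18 with library weights, 0 and 0 by permutation, 10 and 7 with number 1 left out, and 13 and 10 with the block and scaling. With 1 library left out they were 3 to 8 and 0 to 2. With the block and number 1 left out 13 were higher, and 18, 9, 10, 6 and 6 were lower with number 1, 2, 3, 4 or 5 left out. The block with scaling was added after the data were seen. The cause of these shifts was not tested. With depth unknown, no detection limit is given.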
